A study of Mus musculus with 10 samples.

Results

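The 8 genes described here, Pdpn, Irx5, Ptprz1, Fbln7, Cd44, Ackr3, Gja1 and Piezo1, mark osteocytes or serve the long cell processes (dendrites) by which osteocytes touch one another. They lie outside the groups of mineral matrix genes and of Wnt inhibitors. They were taken by gene symbol from a table of 27179 genes, and all 8 were found once and passed the filter on low values. Femurs were taken from 10 mice at 3 or 4 weeks of age (given for the series, not per mouse) and pulverized, and their RNA was depleted of ribosomal RNA before sequencing. The mutants were 5 Fgfr1+/N330I mice, heterozygous for an Fgfr1 gene whose product carries N330I, an amino acid change, and the controls were their 5 wild-type littermates (WT). By label, 3 of the mutants and 3 of the WT mice were female, and 2 of each genotype were male. Values are DESeq2-normalized counts, that is, counts divided by a size factor per library, and each mouse gave 1 library.

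Osteocytes are former osteoblasts that became enclosed in the bone matrix they made. They stay connected through dendrites that run in narrow canals, pass small molecules through gap junctions, and sense load. Podoplanin and CD44 are membrane proteins tied to the actin cytoskeleton of such processes, connexin 43 (Gja1) forms the gap junctions, and Piezo1 is a channel that opens when the membrane is stretched. FGFR1, a receptor for fibroblast growth factors, is made by osteoblasts and osteocytes, and the mutation models osteoglophonic dysplasia, in which bones grow abnormally and phosphate balance is disturbed. None of the 8 genes is restricted to osteocytes: podoplanin is also made by lymphatic endothelium and stromal cells, CD44 by many blood and connective tissue cells, and Piezo1 by vessels. In RNA from whole bone, fewer cells of a type and less RNA per cell cannot be told apart.

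The libraries held 24904802 to 39606608 normalized counts each, with an estimated 18.1 M to 30.6 M reads behind them. Female WT 3 stood apart in that 28.8% of its counts fell on Rn45s, the ribosomal RNA precursor, against at most 0.428% elsewhere. Male WT 1 was poor in reads on genes with long exon sequence: the slope of its log2 deviation on log10 exon length was -1.62, and those of the other libraries lay between -0.48 and 0.45. The library labelled male mutant 2 went against its sex label, since Xist, which silences an X chromosome in females, reached 7972 normalized counts and Ddx3y of the Y chromosome only 4. Fgfr1 itself spanned 8856 to 12990 normalized counts among mutants and 3861 to 11326 among WT mice. The 3861 was that of male WT 1, and the other WT libraries had 7767 to 11326. The log2 difference, mutant minus WT, was 0.52 ± 0.23 (SE, limma unadjusted p = 0.046, adjusted p = 0.783). Counts per gene cannot tell the Fgfr1 alleles apart. The sex labels coincide with 2 series of library names, so the sex label and the library series cannot be told apart. Of the defining osteocyte genes, Dmp1, a matrix protein gene, was present in every library at 44 to 6726 normalized counts, while Sost, which encodes the Wnt inhibitor sclerostin, lay at 0 to 96.

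Genotype changed none of the 8 genes past the threshold. All 8 differences (mutant minus WT, log2(normalized count + 1), with the sex label as covariate) were estimated above 0, from 0.09 for Cd44 to 1.26 for Ptprz1, with a median of 0.16. Over all 14362 genes tested, 48.2% were estimated above 0 and the median was -0.01. By limma with Benjamini-Hochberg adjustment over all genes, 0 of the 8 had an adjusted p under 0.05 (background 0% of genes, 0 in number), and 0 had an unadjusted p under 0.05, where 6.32% of all genes did. In 0 of the 8 genes were the 5 mutant values separate from the 5 WT values, which was so for 0.829% of all genes. Fewer of the 8 lay above 0 under other settings: 4 with array weights (median 0.01), 4 in females alone (median 0.09), 5 without male WT 1 and female WT 3 (median 0.05) and 6 without male WT 1 alone (median 0.08). The same libraries enter all 8 estimates, so they are not independent of each other.

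**Figure D1:**
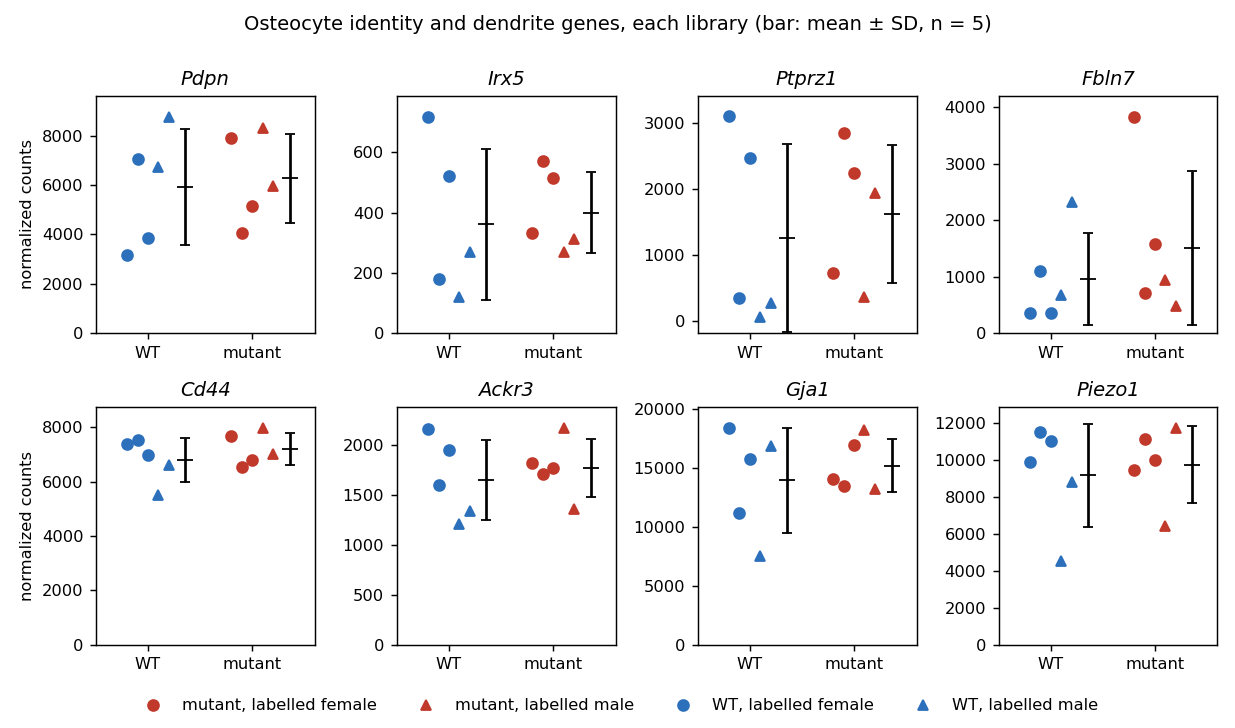
Normalized counts (vertical axes, each starting at or below 0) of the 8 genes in the 5 WT and 5 mutant libraries, circles for labelled females and triangles for labelled males, with mean and SD beside them. The groups overlap in every panel, and Ptprz1 spreads from 57 to 3113.

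Irx5 is the transcription factor of the set, a homeodomain protein of the Iroquois family (mouse gene ID 54352, chromosome 8, 92357796 to 92361456, mm10). It stood at 332, 570 and 514 normalized counts in female mutants 1 to 3 and at 268 and 312 in the libraries labelled male mutant 1 and 2. The WT values were 716, 180 and 520 in females 1 to 3 and 121 and 269 in males 1 and 2. Both the highest and the lowest library were WT, so the mutants lay inside the WT range. Mutants averaged 399.2 ± 133.9 and WT mice 361.2 ± 250.1 (SD, n = 5 each), which gave a difference of 0.38 ± 0.38 (SE) on the log2 scale (limma adjusted p = 0.821). The 95% confidence interval of that difference ran from a fold of 0.724 to a fold of 2.33. The mutants exceeded the WT median in 4 of 5 libraries. Leaving out female WT 2 gave 0.09, the lowest of the single omissions.

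Ptprz1 encodes a receptor-type tyrosine phosphatase of the cell surface that binds pleiotrophin and midkine (gene ID 19283, chromosome 6, 22875502 to 23052916). It varied most among the 8 genes. Female mutants 1 to 3 had 721, 2856 and 2244 normalized counts, and the libraries labelled male mutant 1 and 2 had 365 and 1945. Female WT mice 1 to 3 had 3113, 343 and 2481, and male WT mice 1 and 2 had 57 and 274. The highest and the lowest value were again both WT, and they differed 54.6-fold. The difference between genotypes was 1.26 ± 0.85 (limma adjusted p = 0.795), and its interval ran from a fold of 0.643 to a fold of 8.87. All 5 mutants lay above the WT median of 343, but 2 WT libraries lay above the mutant median of 1945. The residual spread of Ptprz1, 1.58 log2, was at the 99.2 percentile of all genes tested. Without male WT 1, the library with 57, the difference was 0.68, and leaving out male-labelled mutant 2 instead gave 0.66.

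Ackr3, an atypical chemokine receptor that takes up the chemokine CXCL12 (gene ID 12778, chromosome 1, 90204003 to 90216288), was even across the libraries. Its mutant values were 1825, 1711 and 1775 in females and 2167 and 1356 in the male-labelled mice. The WT values were 2164, 1603 and 1948 in females and 1204 and 1341 in males. Mutants averaged 1766.8 ± 289.6 and WT mice 1652.0 ± 403.0 normalized counts (SD, n = 5 each), which gave a difference of 0.12 ± 0.16 (limma adjusted p = 0.86). The interval, a fold of 0.849 to 1.38, leaves out a change of 2-fold in either direction. Leaving out male-labelled mutant 1 gave -0.04.

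Cd44, the receptor for the matrix polysaccharide hyaluronan (gene ID 12505, chromosome 2, 102811141 to 102901665), varied least. It was measured at 7667, 6524 and 6812 normalized counts in female mutants, and at 7960 and 7014 in the male-labelled mutants. WT females had 7383, 7543 and 6981, and WT males 5494 and 6605. The highest library was a mutant and the lowest was male WT 1, and they differed 1.45-fold. The genotype difference of 0.09 ± 0.11 (limma adjusted p = 0.851) had an interval from a fold of 0.896 to a fold of 1.26, the narrowest of the 8. The residual spread of 0.16 log2 was at the 19.1 percentile of all genes.

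Pdpn encodes podoplanin, which in osteocytes appears early, while dendrites are growing out (gene ID 14726, chromosome 4, 143267422 to 143299507). The female mutants had 7890, 4047 and 5139 normalized counts and the male-labelled mutants 8311 and 5972. The WT females had 3149, 7060 and 3862 and the WT males 6744 and 8747. Female WT 1 and female WT 3, the lowest for Pdpn, were among the 3 highest libraries for Ptprz1. Mutants averaged 6271.8 ± 1809.7 and WT mice 5912.4 ± 2339.0 (SD, n = 5 each), and only 2 of 5 mutants were above the WT median of 6744. The difference was 0.14 ± 0.26 (limma adjusted p = 0.894), with an interval from a fold of 0.738 to a fold of 1.64. It was -0.03 without female mutant 1 and -0.02 without female WT 1.

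Gja1, the connexin 43 gene (gene ID 14609, chromosome 10, 56377300 to 56390419), was the most abundant of the 8 per exon length. Its mutant values were 14059, 13397 and 16903 in females and 18149 and 13205 in the male-labelled mice. WT females had 18318, 11160 and 15720, and WT males 7544 and 16854. Male WT 1, at 7544, lay below all other libraries. The difference was 0.18 ± 0.24 (limma adjusted p = 0.855; interval from a fold of 0.784 to 1.64), and 2 of 5 mutants were above the WT median. Without male WT 1 it was -0.04. A further entry of the table, without a symbol and with 0 to 1 normalized counts, covers 22.1% of the Gja1 exon bases.

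Piezo1 encodes the stretch-activated channel (gene ID 234839, chromosome 8, 122481698 to 122551329). The female mutants had 9430, 11131 and 9993 normalized counts and the male-labelled mutants 6414 and 11684. The WT females had 9891, 11515 and 10980 and the WT males 4512 and 8800. The 6 female libraries lay within 9430 to 11515, and both extremes were among the male-labelled ones. The difference of 0.13 ± 0.22 (limma adjusted p = 0.881; interval from a fold of 0.778 to 1.55) was -0.07 without male WT 1 and -0.05 without male-labelled mutant 2. Piezo1 has 8216 exon bases, more than 96.1% of the genes tested, and male WT 1 is the library poor in reads on long genes. With each library's trend on exon length removed, the difference was 0.01 ± 0.12. Ctu2, a neighbour at 403 to 736 normalized counts, shares 12% of the Piezo1 exon bases, and the sources used here do not say whether counting used strand.

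Fbln7 encodes fibulin-7, a secreted matrix glycoprotein (gene ID 70370, chromosome 2, 128863932 to 128897034). Female mutants 1 to 3 had 3821, 713 and 1582 normalized counts and the male-labelled mutants 944 and 482. Female WT mice had 358, 1103 and 358, and male WT mice 680 and 2321. The highest value came from female mutant 1 and the next from male WT 2, so the genotypes overlapped. The difference was 0.63 ± 0.66 (limma adjusted p = 0.828; interval from a fold of 0.555 to 4.3), with 4 of 5 mutants above the WT median. It was 0.15 without female mutant 1. That library also had the lowest endothelial marker mean, 7.37 log2 over 8 genes, against 9.55 to 11.03 in the others, and with this mean as covariate the Fbln7 difference was -0.40. The part of vessel content in the Fbln7 values was not tested further.

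**Figure D2:**
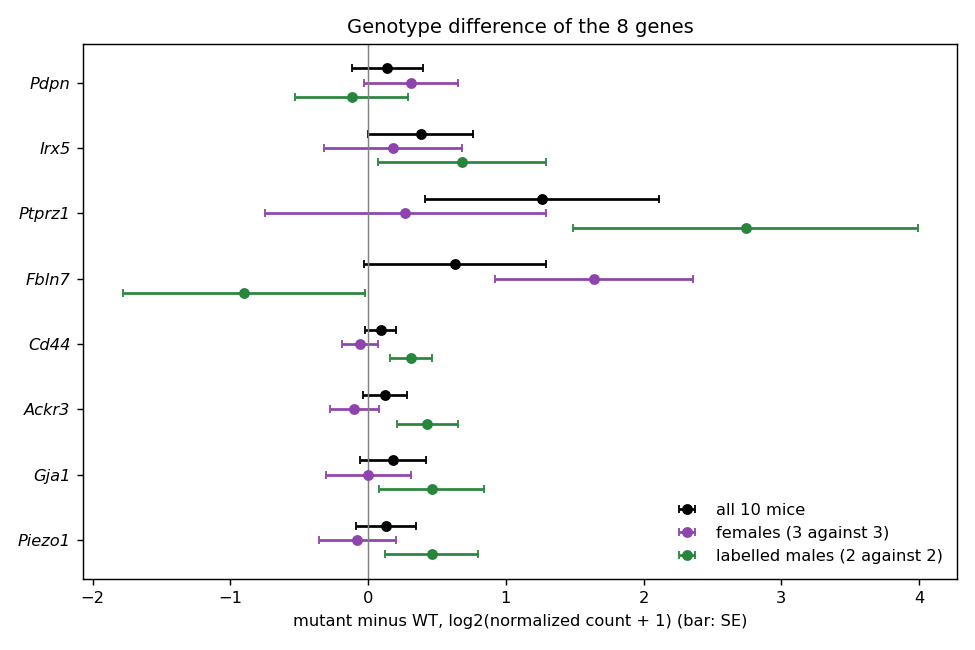
Difference between mutant and WT mice (horizontal axis, log2 of normalized count + 1, with SE) for the 8 genes in all 10 mice, in females and in labelled males. The widest intervals belong to Ptprz1 and Fbln7, whose values in females and labelled males stand far apart.

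Effects within each sex label were estimated next, from the 4 group means. In females 0 of the 8 genes passed (limma; background 0.0139% of genes), and in labelled males 0 passed (background 0%, 0 genes). At an unadjusted p under 0.05 there was 1 member in females (background 4.44%) and 0 in labelled males (background 8.31%). Fits to the mice of 1 label alone turned these counts around, with 0 members in females (8.47% of all genes) and 1, Ptprz1, in labelled males (2.14%). In the joint fit the member was Fbln7, with 1.64 ± 0.72 in females (limma adjusted p = 1), where the 358 to 1103 of WT mice overlapped the 713 to 3821 of mutants. In labelled males Fbln7 had -0.90 ± 0.88. The difference between the sex labels for Fbln7, labelled males minus females, was -2.54 ± 1.13 (adjusted p = 0.801), and -1.65 without male WT 2. Ptprz1 had 0.27 ± 1.02 in females and 2.74 ± 1.25 in labelled males. In the latter, the mutants had 365 and 1945 and the WT mice 57 and 274. How many of all genes have separate values in so few mice was not counted. The Ptprz1 difference between the sex labels was 2.47 ± 1.62 (adjusted p = 0.801). Leaving out male-labelled mutant 2, the one with high Xist, gave 1.27, and leaving out male WT 1 gave 1.35, while the other single omissions gave 1.87 to 3.68. By that interaction test 0 of the 8 genes passed (background 0%, 0 genes), and 0 of the 8 had an unadjusted p under 0.05 (background 3.92%). For the remaining 6 genes the estimates ran from -0.10 (Ackr3) to 0.31 (Pdpn) in females and from -0.12 (Pdpn) to 0.68 (Irx5) in labelled males.

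Levels of the 8 genes were compared per kilobase of exon, over all 10 libraries. Gja1 stood at 4679.8 ± 1091.2 normalized counts per kilobase and Pdpn at 3443.8 ± 1119.6 (SD, n = 10), both above at least 96.3% of the genes tested. Gja1 exceeded Pdpn in 8 of 10 libraries, while Pdpn exceeded the next gene, Cd44, in 10 of 10. Cd44 (1237.8 ± 125.0) and Piezo1 (1148.4 ± 283.8) did not differ beyond their spread, each being the higher in 5 libraries. Ackr3 followed at 662.8 ± 130.4 and Fbln7 at 425.0 ± 376.1, with Ackr3 above Fbln7 in 8 libraries. Ptprz1 (178.5 ± 148.6) and Irx5 (158.2 ± 79.1) were the lowest, near the middle of all genes tested, and each was the higher in 5 libraries. Ptprz1 ranged from 7.06 to 385.9 per kilobase, so its place in the order depended on the library.

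**Figure D3:**
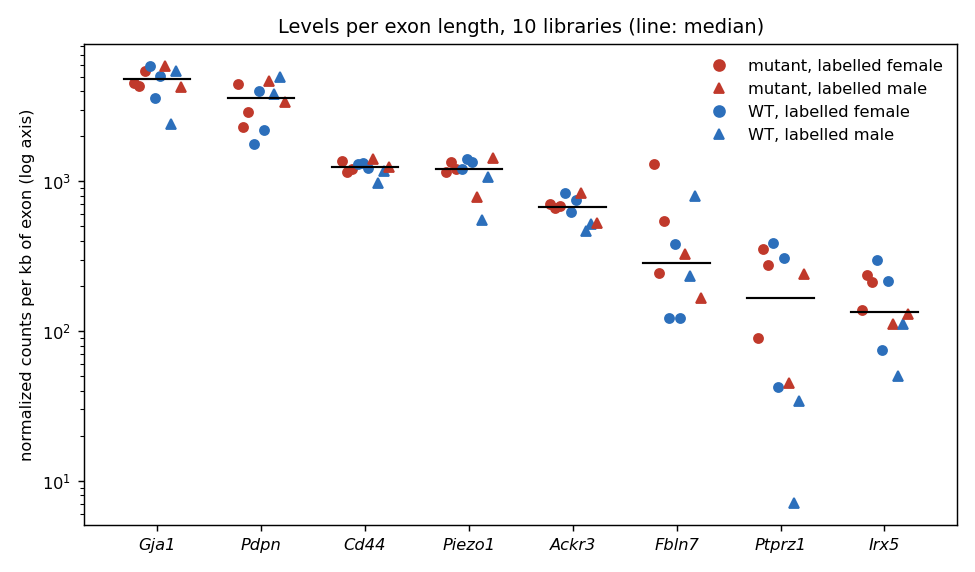
Normalized counts per kilobase of exon (vertical log axis) of the 8 genes in each of the 10 libraries, with the median as a line. Gja1 and Pdpn lie above the other genes, and Ptprz1 and Irx5 have the lowest medians, 165.2 and 134.0.

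Although the genotypes overlapped, libraries differed from one another, and some pairs of the genes lay together or apart. Ptprz1 and Irx5 lay on the same side of their own means in 9 of 10 libraries. Pdpn lay on the opposite side from Irx5 in 10 of 10 libraries and from Ptprz1 in 9 of 10. These were the most one-sided pairs among the 8 genes. Some other pairs were near even: Cd44 with Gja1 and Fbln7 with Ackr3 shared a side in 5 libraries, and Gja1 with Piezo1 in 4. More of the other pairs were one-sided to a lesser degree. Irx5 with Ackr3 and Ptprz1 with Piezo1 shared a side in 8 libraries, Pdpn with Ackr3 in 2, and many pairs in 7 or 3. Such counts were not made over all pairs of genes in the table. Fbln7 lay on the same side as Pdpn in 7 libraries and opposite to Ptprz1 in 8. Female WT 1, with the highest Ptprz1 (3113) and Irx5 (716), had the lowest Pdpn (3149) and, together with female WT 3, the lowest Fbln7 (358). Male WT 2 showed the reverse, with the highest Pdpn (8747), the next to highest Fbln7 (2321) and a Ptprz1 of 274. Both of these libraries are WT.

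The order of the libraries by the bone-forming cell markers ran along with this pattern. The mean of 10 osteoblast markers (log2 scale, among them Col1a1, Ibsp, Alpl and Runx2) was 13.54 to 14.04 in 5 libraries, those of female WT 1, female WT 3, female mutant 2, female mutant 3 and the library labelled male mutant 2, and 12.11 to 12.71 in the other 5. The 5 libraries with the highest Ptprz1 were the same 5, as was so for 2.4% of all genes tested. The mean of 12 other osteocyte genes, Dmp1, Phex and Mepe among them, was also highest in those 5. Irx5 had 4 of its 5 highest libraries among them, and Piezo1 had 4 (15.7% of all genes had 4 or 5). Pdpn had 0 of its 5 highest libraries among them (1.84% of all genes), and Fbln7 had 1 (16.2% of all genes had 0 or 1). Because the libraries fall into these separate ranges, no correlation is given. All 5 libraries of the upper range had high Xist, 7972 to 19641 normalized counts. Male mutant 1, male WT 1 and male WT 2, with Ddx3y at 1558 to 1936, were all in the lower range, beside female mutant 1 and female WT 2. The parts of sex and of library series in this order were not tested. The osteoblast markers were not uniform. Of the 10, Spp1 alone was estimated higher in labelled males than in females (0.78 ± 0.30). By genotype, 6 of the 10 were estimated above 0, with a median of 0.08. Bglap2 (1.91 ± 0.63) and Bglap (1.69 ± 0.65) had an unadjusted p under 0.05 (limma), as 6.32% of all genes had. With the osteoblast mean as covariate, the genotype difference was 0.49 ± 0.39 for Ptprz1, 0.08 ± 0.26 for Irx5, 0.37 ± 0.13 for Pdpn (limma adjusted p = 0.384) and 1.15 ± 0.44 for Fbln7 (limma adjusted p = 0.452). The endothelial mean as covariate moved them the other way, to 2.43 ± 0.70 for Ptprz1 (limma adjusted p = 0.444), 0.75 ± 0.39 for Irx5, -0.23 ± 0.21 for Pdpn and -0.40 ± 0.46 for Fbln7.

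**Figure D4:**
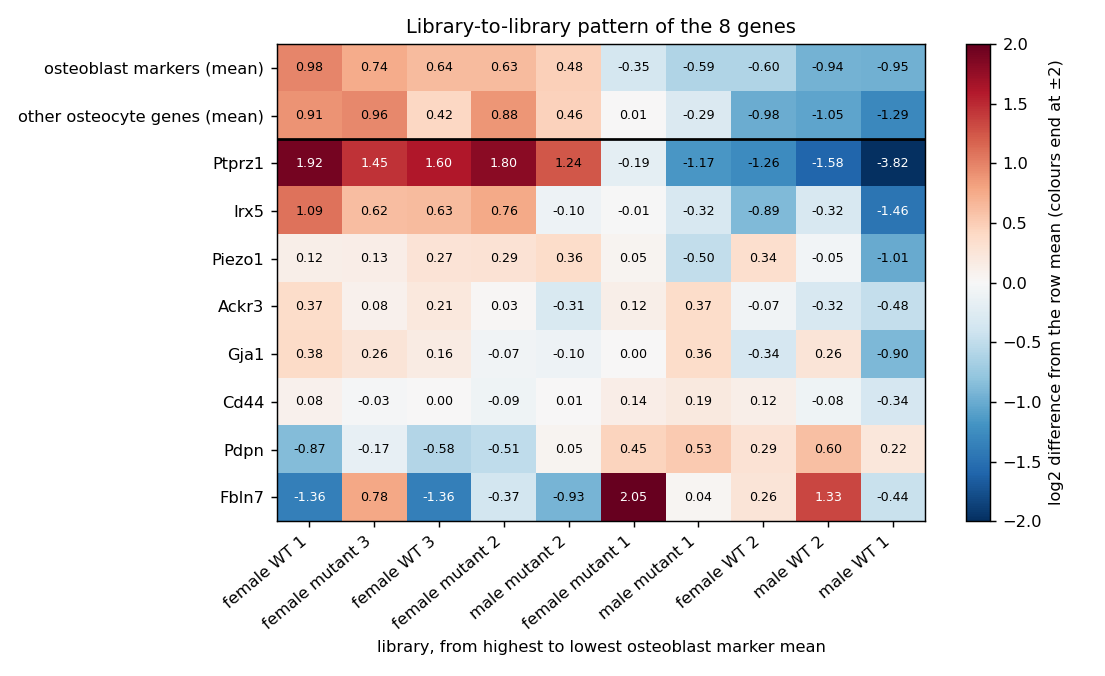
Difference of each library from the mean of the row (colour and printed value, log2), for the means of the osteoblast markers and of the other osteocyte genes and for the 8 genes, with libraries from left to right by falling osteoblast mean. Ptprz1 runs from 1.92 at the left to -3.82 at the right, Pdpn from -0.87 to 0.22, and mutant and WT libraries are found on both sides.

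The 250 bases before the RefSeq starts of Ptprz1 and Pdpn are shown because these genes lay on opposite sides in 9 of 10 libraries (build GRCm38.p6; capitals mark GC boxes, GGGCGG on either strand). The Ptprz1 stretch is chr6:22875252-22875501 on the plus strand, and the Pdpn stretch is chr4:143299565-143299814 on the minus strand, whose RefSeq start lies outside the Pdpn limits of the deposited table given above.
Ptprz1: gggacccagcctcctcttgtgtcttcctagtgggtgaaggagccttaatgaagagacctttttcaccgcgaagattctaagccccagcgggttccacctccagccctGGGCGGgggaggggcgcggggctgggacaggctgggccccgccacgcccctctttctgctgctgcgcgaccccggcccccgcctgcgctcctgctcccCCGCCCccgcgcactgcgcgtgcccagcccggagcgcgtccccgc
Pdpn: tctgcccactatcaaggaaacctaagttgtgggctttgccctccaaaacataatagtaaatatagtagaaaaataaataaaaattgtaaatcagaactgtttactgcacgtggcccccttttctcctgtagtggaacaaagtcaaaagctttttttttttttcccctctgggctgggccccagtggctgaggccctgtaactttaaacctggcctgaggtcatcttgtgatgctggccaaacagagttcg
The Ptprz1 stretch is 71.6% G and C with 22 CpG sites, and the Pdpn stretch is 43.2% G and C with 2, where the median of 32851 promoters was 52.4% and 6. Fbln7, which lay on the side of Pdpn in 7 libraries, has 63.2% and 14, and Piezo1 has the most of the 7 genes found in the table, 74% and 26. Ptprz1 holds 2 GC boxes and Pdpn 0, and 32.7% of all promoters hold at least 1. Neither holds a TATA box (TATAAA, 12.4% of promoters), the Runx core TGTGGT (14%), the homeodomain core TAATTA (4.84%), the AP-1 motif TGANTCA (6.75%) or CCAAT (33.8%), searched on both strands. Of the 8 genes, 7 had a promoter in the RefSeq table. The Runx core was found in Ackr3 alone of the 7, and the AP-1 motif in Gja1 alone.

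The genes most like each of the 8 were ranked by the root mean square difference of their centred log2 values over the 10 libraries, among 14290 other genes with a symbol. The closest to Ptprz1 were Bmp8a and Bmp3, genes of the bone morphogenetic protein family, both at 0.39 log2, against a spread of Ptprz1 itself of 1.82. Irx5 was closest to Carmil1 (0.30), a regulator of actin capping, and Rcor2 (0.31), a corepressor. Pdpn was closest to Aldh1l1 (0.21) and Azin2 (0.22), and Fbln7 to Il13ra2 (0.51) and Dpt (0.55), which encodes the matrix protein dermatopontin. Piezo1 was closest to Flnc (0.11), the filamin C gene with 9166 exon bases, and Dync1h1 (0.12), a dynein heavy chain gene with 14398. These are long genes, as Piezo1 is, and the median over all genes tested was 2825 exon bases. Ptprz1 (8068) and Cd44 (5654) are long as well, while Bmp8a and Bmp3 have 2405 and 3112 and Gphn and Dpy19l1 3402 and 4740. The part of exon length in these rankings was not tested. Cd44 lay 0.07 from Gphn and Dpy19l1, Ackr3 0.12 from Fbxo30 and Glb1l, and Gja1 0.17 from Ubtd2 and 0.18 from Lrrc8e, where the spread of each of these 3 genes itself was at most 0.37.

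Male WT 1 had the lowest value of all 10 libraries in 6 of the 8 genes (Irx5, Ptprz1, Cd44, Ackr3, Gja1 and Piezo1), as in 29.3% of all genes tested. Without male WT 1 and female WT 3, the library with the high share of ribosomal RNA, the genotype difference was 1.02 ± 0.89 for Ptprz1, 0.27 ± 0.42 for Irx5, 0.25 ± 0.82 for Fbln7 and from -0.05 to 0.08 for the other 5 genes, and 0 of the 8 passed. Without those and the library labelled male mutant 2, Ptprz1 had 0.61 ± 0.83 and 0 of the 8 passed. The sex label, tested over the same libraries with genotype as covariate, called 0 of the 8 genes by limma, where 20.1% of all genes passed. Ptprz1 came nearest, at -2.22 ± 0.86 for males minus females (adjusted p = 0.0898).

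Genes around the 8 were then read from lists by role, and none passed (limma, adjusted p under 0.05, 0 in either direction of 14362 genes). Among 12 tested genes of other osteocyte markers and regulators, 9 were estimated above 0, with a median of 0.49. The largest were Dmp1 at 2.66 ± 0.87 and Mepe at 2.51 ± 1.15, both mineral matrix genes, and Phex, an endopeptidase gene that restrains FGF23, at 1.99 ± 0.86 (limma adjusted p = 0.683, 0.786 and 0.783). Mepe was low, at 10 to 193 normalized counts among mutants and 0 to 107 among WT mice. Dmp1 and Phex were the 2 genes of this list with an unadjusted p under 0.05 (limma), as 6.32% of all genes had. Both were lowest in male WT 1, at 44 and 13 normalized counts. The part of that library in their differences was not tested. Kcnk2, a stretch-sensitive potassium channel gene, stood at -0.54 ± 0.27. Sost, Fgf23 and Wnt1 of this list were under the filter on low values.

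The actin and canal genes had small estimates. Over 18 genes of the list, which holds actin linkers, actin bundlers and matrix enzymes among others, the median was -0.03 with 7 estimates above 0. Ezr, the ezrin gene whose product links podoplanin and CD44 to actin, had 0.17 ± 0.09, and its values, 1441 to 2082 for mutants and 1305 to 1770 for WT mice, overlapped. Mmp2, a gelatinase gene, had 0.66 ± 0.34, Cd9, a tetraspanin gene, -0.29 ± 0.14 and Cdc42, a GTPase gene, -0.20 ± 0.12. Male WT 1 had the lowest Mmp2 (10577) and the highest Cd9 (14571) and Cdc42 (22275) of all libraries. The part of that library in these differences was not tested. None passed, and 0 of the 18 had an unadjusted p under 0.05.

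Gja1 was by far the best measured of the connexins. Over 10 other tested connexin, pannexin and purinergic receptor genes the median was -0.18, with 3 estimates above 0 and 0 at an unadjusted p under 0.05. Gjb2 (connexin 26) had low means, 10.8 normalized counts for mutants against 23.6 for WT mice, and a difference of -1.20 ± 0.61. Gja5 (connexin 40) had -1.01 ± 0.90, P2rx4 -0.24 ± 0.17 and P2rx7 -0.12 ± 0.13, the last pair being ATP-gated channel genes. Among 16 mechanosensing genes the median was 0.08, with 13 estimates above 0 and 0 at an unadjusted p under 0.05. Here Itgav, an integrin gene, had 0.35 ± 0.25 and lay at 2005 normalized counts in male WT 1 against 4591 to 5934 in the other 9 libraries. Wwtr1, which encodes the YAP relative TAZ, had 0.27 ± 0.22, Cacna1h, a calcium channel gene, 0.64 ± 0.55 and Cav1, the caveolin gene, -0.25 ± 0.22. Wwtr1 and Cacna1h were lowest in male WT 1 too, at 1925 and 6.

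Among ligands and partners of the 8 products, 16 tested genes had a median of 0.02, and 2 had an unadjusted p under 0.05, as 6.32% of all genes did. Hyal1, which degrades the CD44 ligand hyaluronan, spanned 529 to 1016 normalized counts among mutants and 266 to 687 among WT mice. Its difference was 0.66 ± 0.15 (limma adjusted p = 0.447). Cxcl12, the chemokine taken up by Ackr3, spanned 10201 to 13436 among mutants and 11521 to 23045 among WT mice, and its difference was -0.50 ± 0.19 (limma adjusted p = 0.742). Its signalling receptor gene Cxcr4 had -0.40 ± 0.19, and Arrb2, the beta-arrestin 2 gene, -0.44 ± 0.25. Cxcr4 and Arrb2 were highest in male WT 1, at 7738 and 5851, and Hyal1 was lowest there, at 266. Among 13 tested family members the median was 0.04. Efemp1, a fibulin gene, spanned 991 to 2957 normalized counts among mutants and 562 to 1137 among WT mice, and its difference was 1.02 ± 0.23 (limma adjusted p = 0.447). Irx1 (-1.83 ± 0.86) and Irx2 (-1.09 ± 0.51), relatives of Irx5, averaged at most 26 normalized counts in either group, and Ptprg, the closest relative of Ptprz1, had 0.53 ± 0.28.

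Markers of other cells that make some of the 8 gene products are given beside them. All 8 tested endothelial markers were estimated below 0 (median -1.13; -1.89 in females and 0.05 in labelled males), and 7 of 8 osteoclast markers above 0 (median 1.36; 1.07 and 1.77). Of the osteoclast markers 7 had an unadjusted p under 0.05, and of the endothelial markers 3, where 6.32% of all genes did. Markers of 1 list share the same libraries and are not independent: the osteoclast mean was 12.85 log2 in male mutant 1 and 9.46 to 11.28 in the others. The lymphatic list held at most 0.00362% of the counts outside Rn45s, and its defining gene Prox1 was under the filter. In normalized counts, its tested genes Flt4 and Lyve1 reached at most 921 and 61, and Pdpn had 3149 or more. The lymphatic part of the Pdpn values was not tested. Stroma and periosteum markers held 0.272% to 0.317% of the counts (mutants) or 0.149% to 0.31% (WT mice), and 7 of 8 were estimated above 0 (median 0.30). The 0.149% was that of male WT 1, and the other WT libraries held 0.255% to 0.31%. Of the blood cell list, 3 of 11 genes passed the filter, and Cd44 was read beside macrophage markers at 0.71% to 2.31% of the counts, of which 1 of 6 was estimated above 0. The 2.31% was that of male WT 1, and the other libraries held at most 1.31%. Cartilage markers (6 tested, median -0.14), Schwann cell markers (4 tested, median -0.38) and skeletal muscle markers (8 tested, all estimated above 0, median 1.23; 2.16 in females and 0 in labelled males) held at most 0.0306% of the counts each. None of these genes passed over all genes, and their part in the values of the 8 genes was not tested beyond the covariates given.

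**Figure D5:**
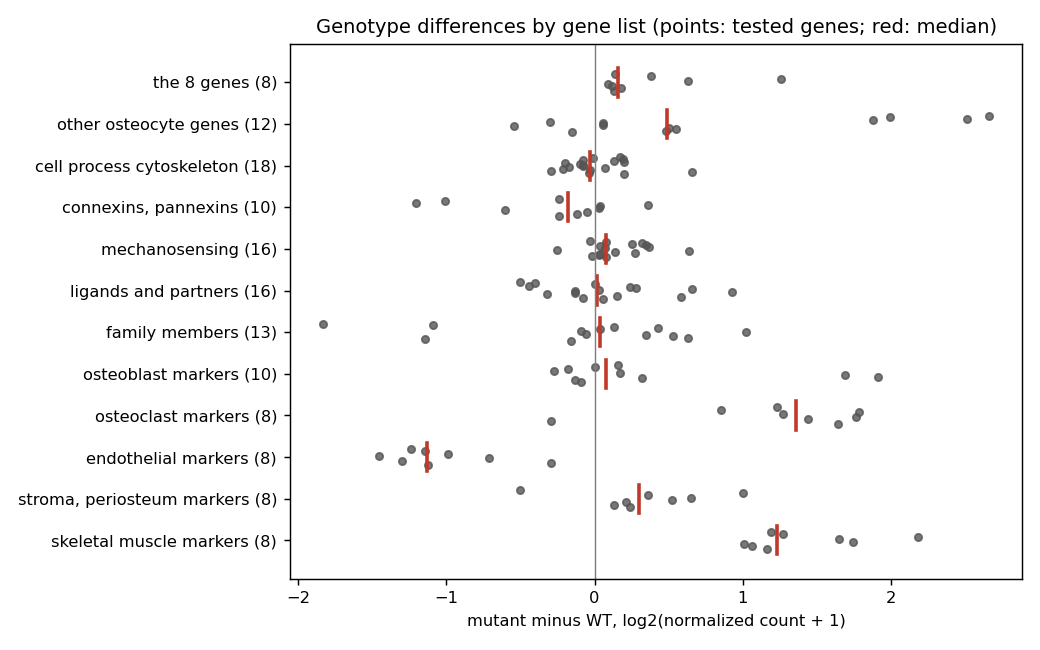
Difference between mutant and WT mice (horizontal axis, log2 of normalized count + 1) for each tested gene of 12 lists, named at the left with the number tested, with the median in red. The 8 genes, at a median of 0.16, lie nearer to 0 than the other osteocyte genes, at 0.49, or the osteoclast and endothelial markers, at 1.36 and -1.13. Nearer to 0 still are the cytoskeleton genes (-0.03), ligands and partners (0.02), family members (0.04), mechanosensing genes (0.08) and osteoblast markers (0.08).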

How the data were processed

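Gene values were deposited as one score per gene and library: counts divided by DESeq2 size factors and rounded to whole numbers by the authors, per the file headers and the values. STAR 2.5.2b, DESeq2 1.14.1 and mm10 are named in the submitters' processing notes; no counter, annotation or strand setting is given in the sources used here. Because rounding followed scaling, no count test was run. Values were taken as log2(normalized count + 1), which understates changes of low genes, for the 14362 genes that reached 10 normalized counts in at least 5 libraries. Genotypes were compared with limma (version 3.58.1, R version 4.3.3; variance trend on the mean, robust moderation), with the sex label as covariate, with Benjamini-Hochberg adjustment over all genes and a threshold of 0.05. Within-sex effects used the 4 group means. Reads behind each value were estimated from gaps and repeats among the low whole numbers of each library. The fewest were 52, for Ptprz1, a counting error of 13.9%.

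The members and lists were chosen with earlier results of these data known, and 180 of 181 list entries matched the table. Named were the 8 genes, Fgfr1, up to 4 genes per role list with the smallest p, the 2 nearest patterns per gene, and Rn45s, Xist and Ddx3y. Sost, Prox1 and the markers named only as list members were chosen after their values were seen. Equal values made up at most 1.12% of tested genes in any pair of replicates. Alternatives were other pseudocounts, filters and scalings, a correction for exon length, covariates, weights, and leaving libraries out.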

Additional observations from a re-analysis of the deposited data

Results flagged for a closer look

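Piezo1 in male WT 1, at 4512 normalized counts, stood apart from the other 4 WT libraries (8800 to 11515). On the log2 scale its gap to the nearest WT library was 0.713 of the group's range, above the 95% critical value of 0.71 for 5 samples. This was 1 of 16 groups examined (8 genes in 2 genotypes), and chance flags about 1 in 20 groups. That library is the one poor in reads on long genes. The part of exon length in this value was not tested beyond the correction given above.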

How the results depend on the processing

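Of the 8 genes, 0 passed under any of the 27 alternatives, and 193 of 216 values stayed above 0, 3 were 0 to 2 decimals and 20 were below 0. Dropping the sex covariate or adding the replicate block cannot move a difference in this balanced design, and other pseudocounts hardly did. The 216 values are therefore not separate tests. With array weights 11 genes of all 14362 were called in place of 0, and the differences of Pdpn, Cd44 and Gja1 were -0.07, -0.04 and -0.05. In labelled males only, Pdpn was at -0.12 and Fbln7 at -0.90; in females only, Cd44 was at -0.06, Ackr3 at -0.10 and Piezo1 at -0.08. With the endothelial covariate, Pdpn was at -0.23 and Fbln7 at -0.40, and with the muscle covariate Piezo1 was at -0.03. Without female WT 3 and male WT 1, Gja1 was at -0.02 and Piezo1 at -0.05, and Piezo1 was at -0.18 without the library labelled male mutant 2 as well. Leaving out single libraries gave -0.03 to 0.30 for Pdpn, 0.09 to 0.63 for Irx5, 0.66 to 1.72 for Ptprz1, 0.15 to 1.13 for Fbln7, 0.01 to 0.13 for Cd44, -0.04 to 0.20 for Ackr3, -0.04 to 0.32 for Gja1 and -0.07 to 0.23 for Piezo1. It gave 0 to 2674 genes called for the sex difference of the genotype effect, the most without male WT 2, where 0 of the 8 passed. The causes were not tested.

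The sample labels do not say that replicate numbers pair the mice. Correlations of deviations ran from -0.32 to 0.22 over the 5 pairs of equal number. Male pairs 1 and 2 gave the same value, 0.22, so the 5 are not separate checks. Weak correlations cannot show that the mice are unpaired. With the replicate number as a block, 0 genes were called, as without it, and Ptprz1 was at 1.26 ± 0.79. The balanced design fixed that difference, and only its SE could change. With 5 mice a group, the interval of Ptprz1 took in folds from 0.643 to 8.87, and the counting error of its lowest library was 13.9%; the parts of depth and of spread between mice in that interval were not separated.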
